A study of Mus musculus with 22 samples.

Results

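The genes followed here are 9 members of fatty acid oxidation and of the PPAR target programme, measured in mouse mammary cells and alveolar macrophages cultured alone or together. They are Cpt1a, Cpt2, Acot1, Acot2, Pdk4, Angptl4, Plin2, Acadl and Hadha, found by symbol in both count tables, 9 of 32544 symbols. Cpt1a and Acot1 were picked because of their levels in co-cultured mammary cells, so their co-culture values in mammary cells are given as a description with no test. For the other 7 the choice names no measured value, but all members were chosen with earlier results of these data known. Their tests and counts are therefore not independent of the choice. Mammary cells came from early lesions (labelled primary epithelium) or from primary tumors (labelled primary epithelial tumor cells) of MMTV-HER2 mice, in which the mouse mammary tumor virus promoter drives HER2. Alveolar macrophages came from wildtype FVB mice, and no group was treated with a drug. All cells grew on Matrigel in DMEM/F12 with horse serum, hydrocortisone, insulin and EGF, a hormone and growth factor mix that every group shares, and the co-cultures were sorted by FACS after 7 days. The early lesion experiment held 3 libraries each of mono-cultured and co-cultured early lesion cells and 2 each of mono-cultured and co-cultured macrophages. The primary tumor experiment held 3 libraries in each of its 4 groups. Early lesion and primary tumor cells were cultured in separate experiments, so stage and experiment cannot be told apart. Not given in the sources used here are the age of the mice, the sorting gate and whether animals were pooled.

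Libraries held 19701436 to 43725724 counts. The share of mitochondrially encoded genes was 2.86 to 3.53% in 16 libraries and 65.7 to 78.6% in the 6 macrophage libraries of the primary tumor experiment, which leaves them the fewest counts for the 9 genes. Grip2 alone took 12.9% in mono-cultured macrophage replicate 1 of that experiment. Mono-cultured replicate 1 of these macrophages stood apart from its group, with a mean chi-square per gene of 166 and 190 against replicates 2 and 3, which were at 18.0 with each other. Replicate 1 of the co-cultured early lesion cells did so too, at 52.4 and 26.4 against 6.90. Replicate 3 of the co-cultured primary tumor cells was at 77.5 and 85.7 against 34.1. All other pairs of replicates lay between 8.77 and 117. Because of the mitochondrial share, levels below are counts per 1000000 counts (CPM) with mitochondrially encoded genes and Grip2 left out of the library size, scaled within each experiment. The marker lists went with the labels. The summed level of 8 mammary epithelium markers was 5583 to 8383 CPM in the mammary libraries and 52.6 to 454 CPM in the macrophage libraries. The summed level of 9 alveolar macrophage markers was 9660 to 45261 CPM in macrophages and 157 to 398 CPM in mammary cells, with Ear1, Ear2, Marco and Car4 at 0 in mono-cultured primary tumor cells.

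Long-chain fatty acids enter mitochondria as carnitine esters, made by Cpt1a at the outer membrane and turned back into acyl-CoA by Cpt2 at the inner membrane. Acadl, an acyl-CoA dehydrogenase, and Hadha, the alpha subunit of the trifunctional protein, then work on the acyl chain during beta-oxidation. Acot1 in the cytosol and Acot2 in mitochondria split acyl-CoA into free fatty acid and coenzyme A. Pdk4 is a kinase that inhibits pyruvate dehydrogenase, Angptl4 a secreted inhibitor of lipoprotein lipase, and Plin2 a coat protein of lipid droplets. Many of these genes are known targets of PPARs, fatty acid sensing nuclear receptors that bind DNA with RXR at direct repeats of AGGTCA spaced by 1 base. Pparg is known for its part in the development of alveolar macrophages.

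Promoter windows of 250 bases before to 50 after the transcription start were matched in RefSeq (GRCm38.p6) for 8 of the 9 genes. Shown are 4 windows, those of the genes with a match to AGGTCA or its repeat and of the neighbours Acot1 and Acot2. Matched letters are in capitals, and each window is written on the strand of its gene. They lie at chr19:3323051-3323350 (Cpt1a, plus strand), chr4:86670010-86670309 (Plin2, minus strand), chr12:84009252-84009551 (Acot1, plus strand) and chr12:83987611-83987910 (Acot2, plus strand).
Cpt1a: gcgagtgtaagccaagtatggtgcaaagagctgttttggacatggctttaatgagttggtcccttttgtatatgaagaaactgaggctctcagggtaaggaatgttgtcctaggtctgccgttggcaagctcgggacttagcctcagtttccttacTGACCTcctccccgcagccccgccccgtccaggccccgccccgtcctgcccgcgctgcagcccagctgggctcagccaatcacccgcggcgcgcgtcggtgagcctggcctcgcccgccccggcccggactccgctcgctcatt
Plin2: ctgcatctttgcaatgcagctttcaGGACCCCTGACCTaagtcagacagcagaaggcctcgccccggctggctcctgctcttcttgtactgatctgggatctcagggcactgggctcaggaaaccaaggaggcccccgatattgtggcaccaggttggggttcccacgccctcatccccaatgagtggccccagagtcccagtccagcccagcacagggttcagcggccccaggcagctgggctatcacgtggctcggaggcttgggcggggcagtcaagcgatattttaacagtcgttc
Acot1: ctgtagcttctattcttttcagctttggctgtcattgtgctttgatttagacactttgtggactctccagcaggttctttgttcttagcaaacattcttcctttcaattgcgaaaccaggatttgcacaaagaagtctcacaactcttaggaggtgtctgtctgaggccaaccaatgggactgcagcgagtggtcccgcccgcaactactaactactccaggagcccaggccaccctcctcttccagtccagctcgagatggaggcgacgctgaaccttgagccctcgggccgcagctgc
Acot2: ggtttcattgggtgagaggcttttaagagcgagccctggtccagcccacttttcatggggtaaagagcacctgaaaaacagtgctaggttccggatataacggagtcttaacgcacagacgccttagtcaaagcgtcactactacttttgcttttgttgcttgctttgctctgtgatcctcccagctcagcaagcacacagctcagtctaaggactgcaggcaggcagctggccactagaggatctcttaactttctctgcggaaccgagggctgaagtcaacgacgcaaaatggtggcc
The single copy AGGTCA, searched on both strands, was found in 2 of the 8 windows, those of Cpt1a and Plin2. It occurs in 16.2% of the 32544 distinct windows in the table. The direct repeat, which is AGGTCA, any 1 base and AGGTCA again, searched on both strands with up to 2 mismatches, was found in 1 window, that of Plin2, as AGGTCAGGGGTCC on the strand opposite to the gene, so that the capitals in its window show the other strand of this match, which overlaps the single copy. Of all windows, 3.87% hold such a match, and 0.0399% hold the repeat without a mismatch. These matches describe letters in a short window and were not measured as binding.

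Per kilobase of the longest protein-coding transcript, Plin2 had the highest level of the 9 genes in all 8 groups, from 172 CPM per kb in co-cultured primary tumor cells to 1069 CPM per kb in macrophages co-cultured with them. Acadl was the second in all 8 groups, at 52.6 to 114 CPM per kb, and Hadha the third, at 42.0 to 63.3 CPM per kb. The lowest place was held by Acot2 in early lesion cells and mono-cultured primary tumor cells, and by Pdk4 in the other 5 groups. The heat map of levels per length shows that the places between these changed between groups, also between groups of the same cell type.

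**Figure D1:**
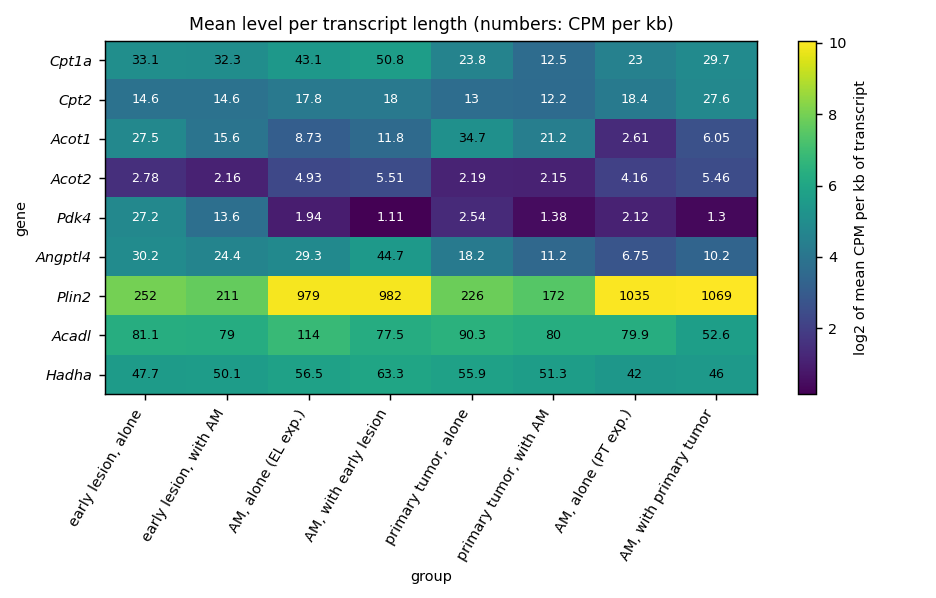
Mean level of each gene (rows) in each of the 8 groups (columns), in CPM per kilobase of the longest protein-coding transcript, on a log2 colour scale with the value printed in each cell. AM stands for alveolar macrophages. Plin2 is highest in every column, from 172 to 1069 CPM per kb, and Pdk4 ranges from 1.11 to 27.2 CPM per kb.

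Plin2, the lipid droplet coat gene, was higher in macrophages in both experiments. Mono-cultured macrophages had 1908 and 1791 CPM against 497, 486 and 442 CPM in mono-cultured early lesion cells. In the primary tumor experiment they had 2009, 1937 and 1913 CPM against 432, 451 and 400.2 CPM. All macrophage libraries lay above all mammary libraries, by a log2 difference of 1.96 ± 0.07 (SE, edgeR quasi-likelihood adjusted p = 2.62e-09) and 2.26 ± 0.11 (adjusted p = 2.84e-08). Among the other enzymes, the mitochondrial thioesterase gene Acot2 was higher in macrophages in both experiments, by 0.84 ± 0.16 (edgeR adjusted p = 0.00105) and 0.99 ± 0.19 (0.00096), and so was Cpt2, by 0.28 ± 0.08 (0.00726) and 0.57 ± 0.12 (0.00126). The cytosolic Acot1 differed by -1.66 ± 0.12 and -3.64 ± 0.23, given with no test because the same mono-cultured mammary libraries are in the contrast it was picked on.

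The remaining genes differed between the cell types in 1 experiment or in opposite directions. Pdk4 was at 101, 103 and 80.8 CPM in mono-cultured early lesion cells and 7.97 and 5.53 CPM in the macrophages beside them, a difference of -3.84 ± 0.19 (edgeR adjusted p = 2.22e-06). Primary tumor cells had 11.1, 9.36 and 6.11 CPM, in the range of their macrophages (8.05, 8.11 and 5.96 CPM), and the difference of -0.20 ± 0.26 did not pass (adjusted p = 0.493). Pdk4 was thus high in early lesion libraries and low in the other 3 cell populations. Angptl4 did not pass in the early lesion experiment (-0.04 ± 0.07, edgeR adjusted p = 0.58) and was lower in macrophages of the primary tumor experiment (-1.37 ± 0.30, 0.00264). Hadha was higher in macrophages by 0.25 ± 0.05 in the early lesion experiment (edgeR adjusted p = 0.00183) and differed by -0.34 ± 0.08 in the primary tumor experiment (0.00319). Acadl passed in the early lesion experiment, at 0.49 ± 0.06 (edgeR adjusted p = 2.58e-05), and not in the primary tumor experiment, at -0.11 ± 0.09 (0.274). Cpt1a differed by 0.39 ± 0.06 and 0.02 ± 0.12, with no test for the same reason as Acot1. Of the 7 other genes, 5 were higher and 1 lower in macrophages of the early lesion experiment, where 77.8% of 15696 genes passed, 37% with higher and 40.7% with lower levels. In the primary tumor experiment 3 were higher and 2 lower, where 78.9% of 13575 genes passed, 36.7% with higher and 42.3% with lower levels. Whether the cell type difference itself differed between the experiments was not tested.

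**Figure D2:**
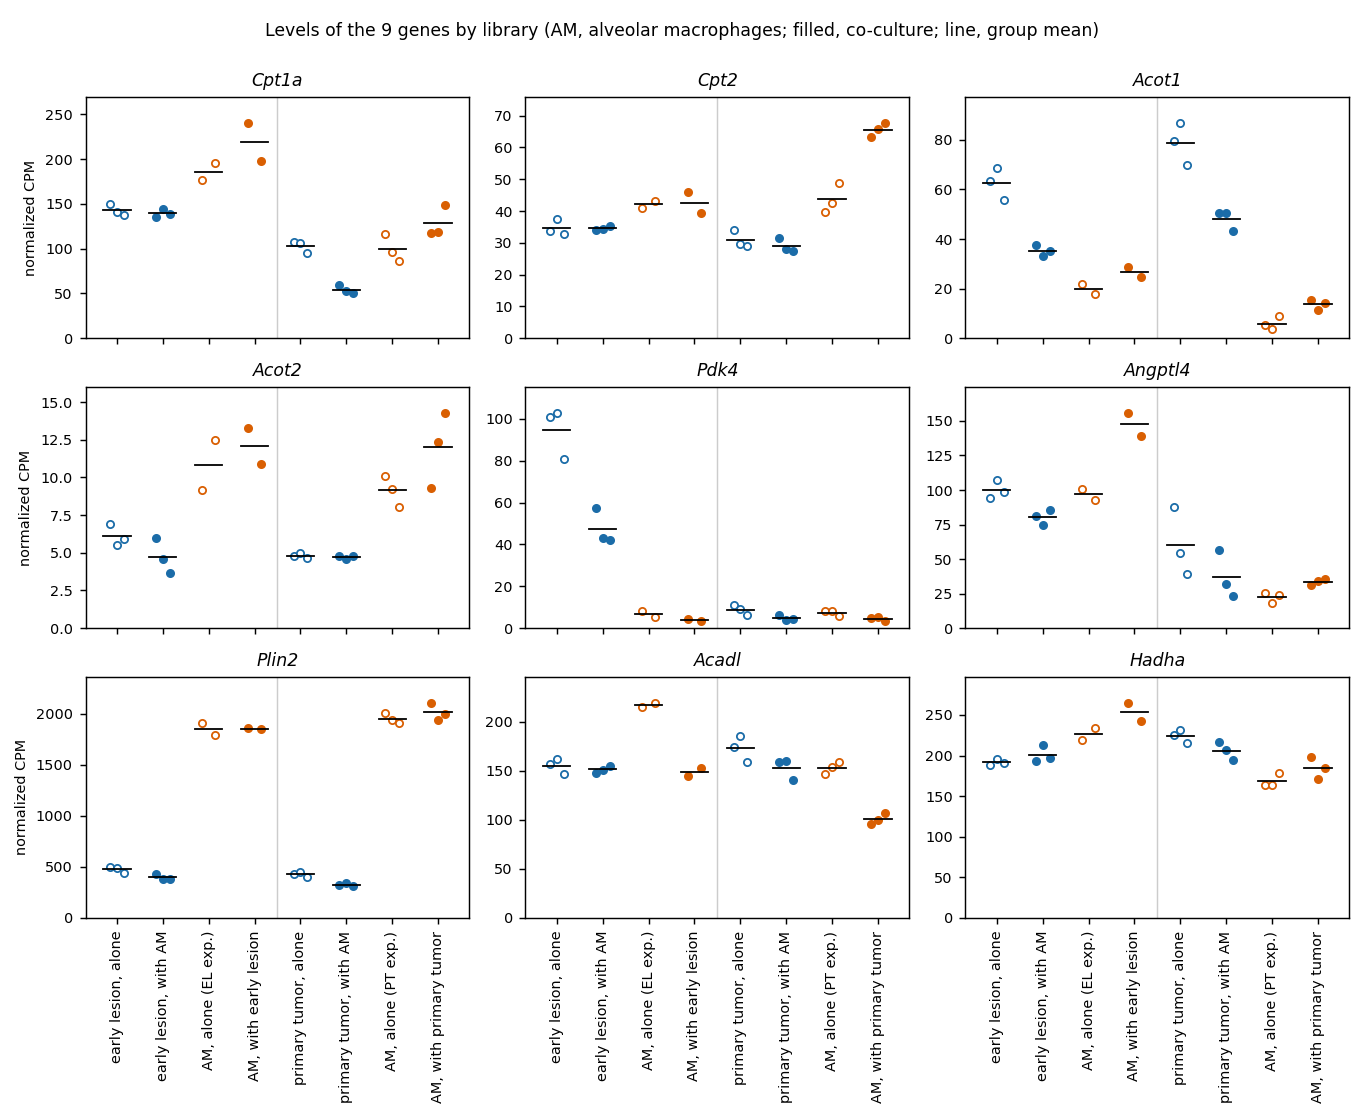
Level of each of the 9 genes in every library, in CPM on a linear axis that starts at 0, with mitochondrially encoded genes and Grip2 left out of the library size. Blue points are mammary cells and orange points alveolar macrophages (AM), open for mono-culture and filled for co-culture, with a line at the group mean, and the grey line parts the early lesion (EL exp.) from the primary tumor (PT exp.) experiment. Plin2 lies at 1791 to 2111 CPM in all macrophage libraries and at 313 to 497 CPM in all mammary libraries.

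Co-culture with macrophages was then compared with mono-culture in the mammary cells. Both picked genes are described first. Cpt1a was at 107, 106 and 94.8 CPM in mono-cultured primary tumor cells and 59.4, 52.8 and 50.3 CPM in co-cultured ones, a log2 change of -0.91 ± 0.08. In early lesion cells Cpt1a was at 150.0, 141 and 137 CPM against 136, 144 and 139 CPM, a change of -0.03 ± 0.05. The primary tumor groups did not overlap and the early lesion groups did, so the lower level of Cpt1a was seen in 1 of the 2 mammary cell types. The difference between the responses was 0.88 ± 0.09, and it is not tested because Cpt1a was picked on these contrasts.

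Acot1 was at 63.3, 68.5 and 55.8 CPM in mono-cultured and 37.5, 33.3 and 35.3 CPM in co-cultured early lesion cells, a change of -0.82 ± 0.08. In primary tumor cells it was at 79.5, 86.9 and 70.0 CPM against 50.6, 50.5 and 43.1 CPM, a change of -0.71 ± 0.10. All co-cultured libraries lay below all mono-cultured ones in both cell types, and the responses differed by -0.12 ± 0.13. Its neighbour Acot2 was low in all 12 mammary libraries, at 3.68 to 6.90 CPM. Acot2 changed by -0.35 ± 0.19 in early lesion cells (edgeR adjusted p = 0.436) and -0.02 ± 0.13 in primary tumor cells (0.952), and the groups overlapped in both.

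Of the 7 genes not picked on this contrast, none passed in early lesion cells, where 76 of 14891 genes passed (0.51%), and 2213 genes had an unadjusted p under 0.05. Pdk4, the pyruvate dehydrogenase kinase, had the largest value, with 101, 103 and 80.8 CPM alone and 57.5, 42.9 and 42.0 CPM with macrophages (-0.996 ± 0.15, edgeR adjusted p = 0.0665). Angptl4 was at 93.9, 107 and 98.8 CPM against 81.2, 74.9 and 85.7 CPM (-0.31 ± 0.07, edgeR adjusted p = 0.124). Plin2 was at 497, 486 and 442 CPM against 433, 378 and 382 CPM (-0.26 ± 0.07, edgeR adjusted p = 0.182). In each of these 3 genes the co-cultured libraries all lay below the mono-cultured ones, which held, toward lower levels, for 10.3% of all genes. Cpt2, Acadl and Hadha, which carry out mitochondrial steps, had overlapping groups and changes of -0.01 ± 0.06, -0.04 ± 0.05 and 0.07 ± 0.05. The unadjusted p of edgeR was under 0.05 for Pdk4, Angptl4 and Plin2. DESeq2, which called more of all genes in early lesion cells than edgeR did, called the same 3 genes, with adjusted p-values of 1.29e-09, 0.00902 and 0.0332. Without co-cultured replicate 1, the highest co-cultured library for Pdk4 and Plin2, edgeR gave adjusted p-values of 0.0044 for Pdk4 (-1.16), 0.0104 for Plin2 (-0.32) and 0.0336 for Angptl4 (-0.32), while 1612 of all genes passed. Most alternatives did not call these genes. Of 12 alternative fits, 4 called Pdk4, 3 called Angptl4 and 3 called Plin2. The edgeR adjusted p-values reached 0.27, 0.36 and 0.515. The summed fibroblast markers ranged from 959 to 1878 CPM in mono-cultured and from 1034 to 3120 CPM in co-cultured early lesion libraries, and their part in these values was not tested.

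In primary tumor cells 1 of the 7 genes passed, Plin2, where 1.67% of 13506 genes passed and 1.01% passed with lower levels. Plin2 was at 432, 451 and 400.2 CPM alone and 319, 344 and 313 CPM with macrophages. It fell by 0.38 on the log2 scale (-0.38 ± 0.07, edgeR adjusted p = 0.0387), with no overlap between the groups, which held, toward lower levels, for 13.7% of all genes. This call was lost in 5 of the 6 fits that left out 1 library, all but the one without mono-cultured replicate 3, with adjusted p-values up to 0.185. Pdk4 was at 11.1, 9.36 and 6.11 CPM against 6.33, 3.89 and 4.17 CPM (-0.87 ± 0.26, edgeR adjusted p = 0.137). Angptl4 was at 87.7, 54.3 and 39.0 CPM against 56.5, 31.7 and 23.2 CPM (-0.69 ± 0.45, edgeR adjusted p = 0.471). Both genes had overlapping groups, and in both the libraries of replicate 1 were the highest of their group.

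Libraries of the same replicate number moved together in primary tumor cells, so the values within replicate pairs stand beside these. Angptl4 differed by -0.63, -0.78 and -0.75 in the 3 pairs, a narrow range beside the spread of its levels. Pdk4 differed by -0.81, -1.26 and -0.55, and Acadl by -0.13, -0.21 and -0.18. With the replicate number as a block, 4 of the 7 genes passed, where 21% of all genes passed and 10.4% passed with lower levels. Angptl4 (-0.71, edgeR adjusted p = 3.7e-07), Pdk4 (-0.86, 0.000262) and Acadl (-0.17, 0.0169) passed with lower levels, as did Plin2. Without the block Acadl was at -0.17 ± 0.08 (edgeR adjusted p = 0.277), Hadha at -0.11 ± 0.06 (0.318) and Cpt2 at -0.08 ± 0.08 (0.631).

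All 9 changes in primary tumor cells and 8 of 9 in early lesion cells were below 0, with medians over the 9 genes of -0.38 and -0.26, beside medians over all genes tested of 0.00455 and 0.00157. These medians hold the picked genes. Without Cpt1a and Acot1, 7 of 7 and 6 of 7 changes were below 0, with medians of -0.17 and -0.26. The test of the difference between the 2 mammary responses called none of the 7 other genes, where 0.137% of 15284 genes were called. Hadha was the 1 gene of the 7 with an unadjusted p under 0.05 there (0.18 ± 0.07, edgeR adjusted p = 0.29), and DESeq2 called none of the 7. With the replicate block 7.39% of all genes passed, and Angptl4 was the 1 gene of the 7 that did (0.39, adjusted p = 0.0227). In bulk libraries fewer cells of a type and less RNA per cell cannot be told apart.

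**Figure D3:**
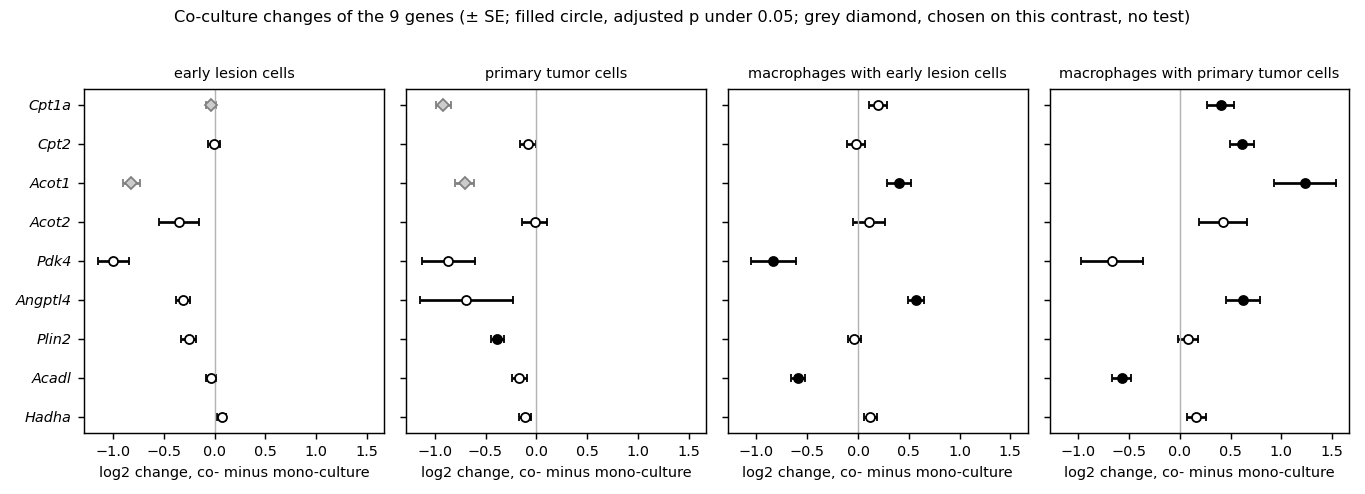
Log2 change of each gene from mono-culture to co-culture in the 4 cell populations, with bars of 1 standard error. Filled circles passed an adjusted p of 0.05 in edgeR without a replicate block, open circles did not, and grey diamonds mark Cpt1a and Acot1 in mammary cells, for which no test is given. Acot1 lies at -0.82 and -0.71 in mammary cells and at 0.40 and 1.23 in macrophages.

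The macrophages answer the reverse question, how the same genes stood after culture with mammary cells. Acadl, the acyl-CoA dehydrogenase, fell in both experiments. It was at 215 and 219.6 CPM in mono-cultured macrophages and 144 and 152 CPM with early lesion cells (-0.59 ± 0.06, edgeR adjusted p = 7.87e-05). In the primary tumor experiment it was at 147, 153 and 159 CPM alone and 95.5, 100.1 and 107 CPM with tumor cells (-0.57 ± 0.09, edgeR adjusted p = 0.000435). Groups did not overlap in either experiment, and the call was kept in all 10 and 12 alternative fits.

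Angptl4, the secreted lipase inhibitor, rose in both. It was at 101 and 92.9 CPM against 156 and 139 CPM with early lesion cells (0.57 ± 0.08, edgeR adjusted p = 0.000317), a call kept in all 10 alternative fits. With primary tumor cells it was at 25.1, 17.9 and 24.0 CPM against 31.0, 34.4 and 35.6 CPM (0.63 ± 0.17, edgeR adjusted p = 0.0112). All co-cultured libraries lay above all mono-cultured ones. The second call was lost without mono-cultured replicate 2 (0.48, edgeR adjusted p = 0.0679), without co-cultured replicate 3 (0.59, 0.0563) and with all 4 groups in 1 fit (0.59, 0.342).

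Acot1 also rose in both macrophage comparisons, from the low levels of this cell type. It was at 21.9 and 17.8 CPM against 28.6 and 24.9 CPM with early lesion cells (0.40 ± 0.12, edgeR adjusted p = 0.0387). With primary tumor cells it was at 5.29, 3.58 and 8.93 CPM against 15.6, 11.4 and 14.3 CPM (1.23 ± 0.30, edgeR adjusted p = 0.00703), which rests on 19 to 51 counts a library alone and 45 to 72 counts in co-culture. Groups did not overlap. The first call was lost without mono-cultured replicate 2 (0.23, edgeR adjusted p = 0.198), without co-cultured replicate 1 (0.30, 0.12) and in DESeq2 (0.0749), and the second was kept in all 12 alternative fits. Acot2 did not pass, at 0.11 ± 0.16 (edgeR adjusted p = 0.684) and 0.43 ± 0.24 (0.195), and its groups overlapped in both.

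Of the carnitine transferases, Cpt2 was at 39.8, 42.6 and 48.9 CPM alone and 63.2, 65.7 and 67.8 CPM with primary tumor cells, and rose by 0.61 ± 0.12 (edgeR adjusted p = 0.00153). With early lesion cells it was at 41.1 and 43.1 CPM against 45.9 and 39.4 CPM (-0.02 ± 0.09, edgeR adjusted p = 0.904). The primary tumor groups were apart and the early lesion groups overlapped. The test of the difference between the 2 macrophage responses called Cpt2 (-0.62 ± 0.16, early lesion minus primary tumor, edgeR adjusted p = 0.0202) and no other of the 9 genes, where 10.9% of 13727 genes were called. Without mono-cultured macrophage replicate 3 of the primary tumor experiment, Acot1 was called too (-1.29, edgeR adjusted p = 0.0109, against -0.82 ± 0.34 and 0.139 with it). In such differences the partner cells and the experiment cannot be told apart. Cpt1a rose with primary tumor cells, from 116, 96.3 and 85.7 CPM to 117, 119 and 148 CPM (0.40 ± 0.13, edgeR adjusted p = 0.0331), although the highest mono-cultured and lowest co-cultured library were nearly level. That call was lost in 3 of the 6 fits without 1 library, those without mono-cultured replicate 2 (0.38, edgeR adjusted p = 0.122), mono-cultured replicate 3 (0.30, 0.0975) and co-cultured replicate 3 (0.29, 0.182). With early lesion cells Cpt1a was at 177 and 195 CPM against 240.5 and 198 CPM (0.20 ± 0.09, edgeR adjusted p = 0.171), which passed without mono-cultured replicate 2 (0.25, 0.0314) and without co-cultured replicate 2 (0.32, 0.00649).

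Pdk4 was low in all macrophage libraries, at 3.52 to 8.11 CPM. It fell with early lesion cells, from 7.97 and 5.53 CPM to 4.12 and 3.60 CPM (-0.84 ± 0.22, edgeR adjusted p = 0.0231), a call lost without mono-cultured replicate 1 (-0.55, 0.139) and with all 4 groups in 1 fit (-0.78, 0.0873). With primary tumor cells it was at 8.05, 8.11 and 5.96 CPM against 4.76, 5.31 and 3.52 CPM (-0.66 ± 0.31, edgeR adjusted p = 0.12), on 15 to 43 counts a library. The groups did not overlap in either experiment. Plin2 and Hadha passed in neither, with Plin2 at -0.04 ± 0.06 and 0.08 ± 0.10 and Hadha at 0.12 ± 0.07 and 0.16 ± 0.09. Plin2 was at 1791 to 2111 CPM in all 10 macrophage libraries. Without mono-cultured replicate 1, which stood apart, the 5 calls with primary tumor cells were kept, at -0.61 for Acadl, 1.15 for Acot1, 0.70 for Angptl4, 0.54 for Cpt2 and 0.52 for Cpt1a.

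In all, 2 of 9 genes rose and 2 fell in macrophages with early lesion cells, where 9.11% of 14032 genes rose and 9.19% fell. With primary tumor cells 4 rose and 1 fell, where 15.8% of 11121 genes rose and 14.8% fell. Groups were apart upward in 4 genes and downward in 2 in both experiments, where 34.2 and 24.7% of all genes were apart with early lesion cells and 21.2 and 23.7% with primary tumor cells. The median change of the 9 genes was 0.11 and 0.40, beside medians over all genes of 0.0019 and 0.000715.

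Markers of the partner cells moved with co-culture in the macrophage libraries. The summed mammary epithelium markers were at 172 to 198 CPM alone and 382 to 454 CPM with early lesion cells, and at 52.6 to 62.5 CPM alone and 236 to 282 CPM with primary tumor cells, with no marker at 0 in a whole group. Their mean rise came to 3.22 and 3.29% of the level in the co-cultured mammary partner. The mean rise of Acot1 came to 19.6 and 16.3% of its level in the partner, that of Angptl4 to 63.1 and 30.5%, and that of Cpt2 with primary tumor cells to 75.2%. The part of partner RNA in these values was not tested. In the co-cultured mammary cells the summed pan-macrophage markers were at 9.39 to 30.2 CPM (early lesion) and 13.7 to 17.8 CPM (primary tumor), against 6.75 to 14.4 and 11.1 to 12.6 CPM alone, so that the primary tumor ranges did not overlap. The mean rise came to 0.0310 and 0.0578% of the level in the macrophage partner. Of the macrophage markers, Chil3 and Lyz2 passed as higher in co-cultured primary tumor cells (edgeR adjusted p = 0.0013 and 0.0387), with Chil3 at up to 0.0348 CPM alone and 4.57 to 6.23 CPM in co-culture, and Lyz2 at up to 0.177 CPM alone and 0.905 to 1.77 CPM in co-culture. The other macrophage markers tested there did not pass. Mrc1 (1.49 ± 0.38), Cybb (0.57 ± 0.15), Cd68 (0.43 ± 0.31) and Plet1 (0.24 ± 0.11) were above 0. Ptprc (-0.17 ± 0.24), Csf1r (-0.04 ± 0.20) and Ctsk (-0.56 ± 0.39) were below 0. The part of macrophage RNA in the mammary values was not tested. Plin2, which was lower in co-cultured primary tumor cells, was 6.2 times as high in their macrophage partner.

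Acot1 and Acot2 are neighbours and near copies, so reads can be split between them. On GRCm38, both lie on the plus strand of chromosome 12, Acot2 at chr12:83987861-83993873 and Acot1 at chr12:84009490-84018371, 15616 bases apart. Their longest protein-coding transcripts are identical at 82.6% of 2004 aligned bases, with an unbroken run of 273 identical bases. Of all stretches of 50 bases, 13.6% of those of Acot1 also occur in Acot2 and 24.6% of those of Acot2 occur in Acot1. The share of Acot1 in the summed counts of both was 90.2 to 92.5% in mono-cultured and 86.3 to 90.6% in co-cultured early lesion cells, and 93.8 to 94.6% against 90.05 to 91.6% in primary tumor cells. In macrophages of the primary tumor experiment it was 27.9 to 52.6% alone and 47.9 to 62.6% in co-culture. Counts of both genes are therefore uncertain, and the counting of reads with several matches is not described in the sources read here. Exons of Hadha overlap those of Garem2 on the other strand by 75 bases, and no other exon of the 9 genes overlaps another gene.

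Other genes of the pathway were read from 7 lists. In early lesion cells the mitochondrial list had a median of 0.07 over 20 genes with none called, and the peroxisomal list a median of 0.17 over 16 genes, beside 0.00157 over all genes. None of 12 other PPAR target genes and none of 11 lipid droplet and lipase genes passed there, with medians of -0.08 and 0.08. These counts stand beside 0.51% of all genes that passed in early lesion cells, a share too small for lists of this size to tell from none. With the replicate block 21% of all genes passed in primary tumor cells, and the counts of the lists under it are not reported here. Without the block none of 20 mitochondrial and none of 15 peroxisomal genes passed in primary tumor cells, where 1.67% of all genes passed. The nuclear receptor corepressor gene Nrip1 fell there (-0.43 ± 0.06, edgeR adjusted p = 0.024). This call was kept in 9 of 12 alternative fits and lost without mono-cultured replicate 2, co-cultured replicate 2 or co-cultured replicate 3, up to an adjusted p of 0.15.

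In macrophages co-cultured with early lesion cells, 8 of 20 other mitochondrial beta-oxidation genes fell and none rose (median -0.14), beside 9.19 and 9.11% of all genes. They included the acyl-CoA synthetase Acsl1 (-1.05 ± 0.06, edgeR adjusted p = 1.02e-06), which activates long-chain fatty acids, and the enoyl-CoA isomerase Eci2 (-0.39 ± 0.07, 0.00157). With primary tumor cells 2 of 19 rose and 4 fell (median 0.08), beside 15.8 and 14.8% of all genes, which is near the background. The counts of the next lists stand beside these same shares. Acsl1 fell again (-0.77 ± 0.11, edgeR adjusted p = 0.000104), as did Acsl4 (-0.64 ± 0.11, 0.000492), and Acads, the short-chain dehydrogenase, rose (0.43 ± 0.10, 0.00362). The median of 15 peroxisomal genes was -0.03 with early lesion cells and 0.20 with primary tumor cells. The peroxisomal transporter gene Abcd3 fell in both (-0.61 ± 0.08, edgeR adjusted p = 0.000278, and -0.74 ± 0.18, 0.00702).

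Other PPAR target genes went both ways in macrophages. With early lesion cells 2 of 13 tested rose and 4 fell, and with primary tumor cells 5 of 11 rose and 3 fell, with medians of 0.14 and 0.08. Lpl and Cd36 fell in both. Lpl, lipoprotein lipase, which the Angptl4 protein inhibits, changed by -1.60 ± 0.07 (edgeR adjusted p = 1.23e-07) and -2.04 ± 0.13 (1.66e-07), and the fatty acid receptor Cd36 by -1.14 ± 0.07 (1.01e-06) and -1.78 ± 0.15 (6.85e-06). The fatty acid binding protein gene Fabp4 fell with early lesion cells (-1.01 ± 0.08, edgeR adjusted p = 8.59e-06) and with primary tumor cells (-0.32 ± 0.11, 0.0447, kept in 6 of 12 alternative fits). Abcg1, a cholesterol exporter, rose in both (0.55 ± 0.07, edgeR adjusted p = 0.000179, and 1.04 ± 0.10, 6.64e-06). The early lesion calls of Lpl and Abcg1 were lost with all 4 groups in 1 fit (adjusted p = 0.0688 and 0.249). Cidec, a lipid droplet fusion protein, and Fabp1 rose with primary tumor cells, by 2.51 ± 0.20 (edgeR adjusted p = 9.07e-07) and 2.89 ± 0.25 (1.62e-06). Cidec is also 1 of the 6 genes on the adipocyte marker list, and the only one that passed the filter on low counts in this comparison. The sum of the list, which holds Cidec itself, was at 6.97 to 10.3 CPM alone and 35.3 to 46.4 CPM in co-culture. Adipoq, Cfd and Lep were at 0 alone and Lep at 0 in co-culture. The sum is thus no measure of adipocyte markers apart from Cidec.

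Pparg itself was at 249.9 to 477 CPM in macrophages and 1.36 to 3.86 CPM in mammary cells, and Ppara was at or under 2.53 CPM in all 22 libraries. Ppard was at 45.1 to 89.5 CPM in every library. With primary tumor cells Pparg rose in macrophages (0.60 ± 0.08, edgeR adjusted p = 0.000118), as did its partner Rxra (0.65 ± 0.09, 0.000151), while the coactivator Ppargc1b fell (-1.15 ± 0.13, 2.33e-05). In all, 5 of 13 receptor and coregulator genes rose and 3 fell there (median 0.11). With early lesion cells 3 of 13 rose and 2 fell (median 0.11), with Rxra at 0.30 ± 0.06 (edgeR adjusted p = 0.00639). The response of Pparg differed between the experiments (-0.64 ± 0.12, edgeR adjusted p = 0.00348), and this call was lost with all 8 groups in 1 fit (0.0544).

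Of 8 pyruvate dehydrogenase genes, 2 rose and 1 fell with early lesion cells and 4 rose with primary tumor cells, with medians of 0.10 and 0.29. Pdk1, a kinase of the same family as Pdk4, rose from 36.2 to 37.7 CPM alone to 187 to 216 CPM with primary tumor cells (2.48 ± 0.10, edgeR adjusted p = 6.74e-09) and from 59.2 to 69.5 CPM alone to 102 to 111 CPM with early lesion cells (0.69 ± 0.09, 0.000285). Its direction was opposite to that of Pdk4. The rise of Pdk1 was larger in the primary tumor experiment (-1.77 ± 0.15, early lesion minus primary tumor, edgeR adjusted p = 1.55e-05), where partner and experiment cannot be told apart. Of the lipid droplet and lipase genes, 3 of 11 rose and 2 fell with early lesion cells, and 5 of 8 rose and 1 fell with primary tumor cells, with medians of 0.35 and 0.61. Hilpda rose with early lesion cells (1.38 ± 0.18, edgeR adjusted p = 0.0126), the lipase gene Pnpla2 with primary tumor cells (0.72 ± 0.08, 2.63e-05), and the monoglyceride lipase gene Mgll fell in both (-0.86 ± 0.07, 5.64e-06, and -1.19 ± 0.09, 7.66e-07). Of the thioesterases outside Acot1 and Acot2, 1 of 7 rose with primary tumor cells, Acot9 (0.46 ± 0.14, edgeR adjusted p = 0.0218), and none of 8 passed with early lesion cells.

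**Figure D4:**
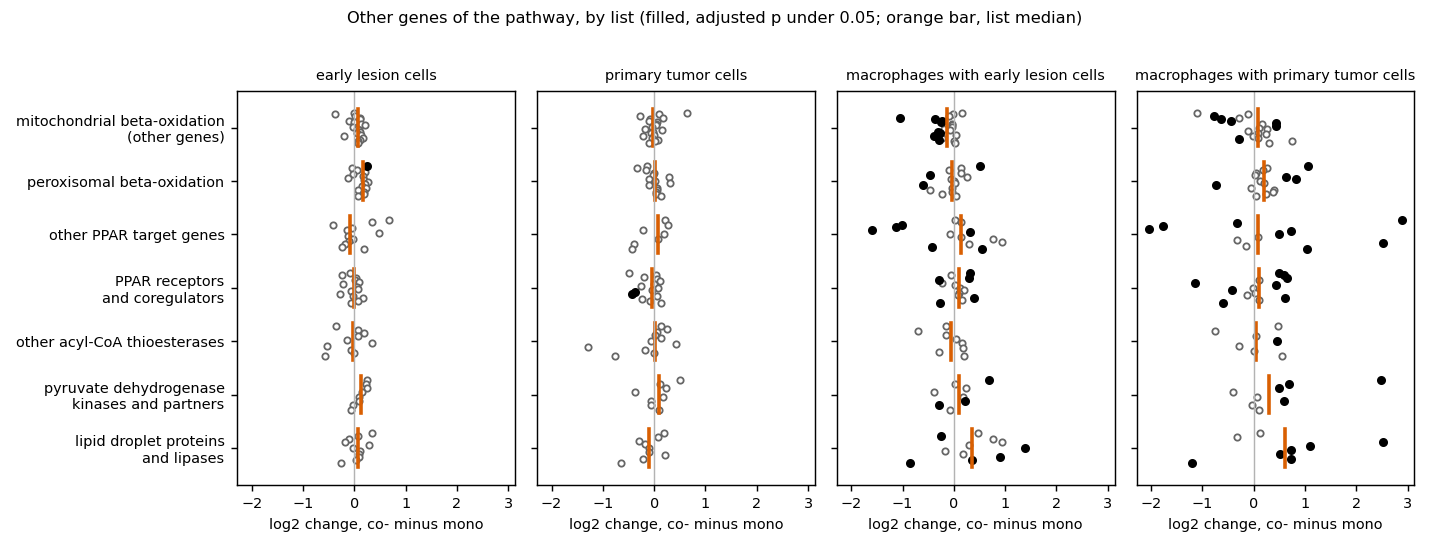
Log2 change from mono-culture to co-culture of the other pathway genes, 1 point a gene, in 7 lists (rows) and 4 cell populations (panels). Filled points passed an adjusted p of 0.05 in edgeR without a replicate block, and orange bars mark list medians. In macrophages with early lesion cells 8 of 20 mitochondrial beta-oxidation genes are filled, all to the left of 0.

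Over all 22 libraries, the gene most like each member by Pearson correlation of log2 CPM was named as a description. The closest were Gsr and Dtx4 for Plin2 (r = 0.995 for both), Zfp524 for Cpt2 (0.966), Clip1 for Pdk4 (0.96) and Tmem56 for Acot1 (0.958). They were followed by Mmp27 for Acot2 (0.953), Gtf2ird2 for Angptl4 (0.916), Zfp263 for Cpt1a (0.914), Lamtor2 for Hadha (0.899) and Osgin1 for Acadl (0.885). The points share 2 experiments and 2 cell types, and no correlation within them was computed.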

How the data were processed

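Gene expression was measured in 22 mouse bulk RNA-seq libraries. The authors deposited raw read counts per gene symbol in 2 tables, 1 per experiment. Per the submitters' processing notes, bcl2fastq 2.17 and mm10 were used; not given in the sources used here are the aligner, the counter, the annotation and the strandedness. Per the labels, oligo-dT selected RNA went into NEBNext Ultra libraries, and replicates are biological; p-values measure the spread between these libraries.

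Groups came from the labels. Each comparison was fitted on all genes in edgeR 4.0.16 under R 4.3.3 (filterByExpr, TMM, robust dispersion, two-sided quasi-likelihood F test, Benjamini-Hochberg adjustment, threshold 0.05), and checked on simulated data. The standard error is the log2 change divided by the square root of F. Levels are TMM CPM within an experiment without the 13 mitochondrially encoded genes and Grip2 in the library size. That had been listed as the alternative and was taken as the main scale after their share was seen. Alternatives were RLE, no filter, DESeq2 1.42.0, the replicate block, all groups in 1 fit, dropping those genes and leaving out each library. For likeness, a prior count of 2 was used. Coordinates and lengths came from GENCODE on GRCm38.

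All 9 members were named everywhere. From each list at most the 3 called genes with the smallest adjusted p in each direction were eligible for naming. The members and lists were chosen with earlier results of these data known. Some genes of the lists are not reported here. No pairing is stated in the sources used here. Deviations of same-numbered libraries correlated at 0.427, 0.335 and 0.425 between primary tumor groups. The main fits hold no block for this. For primary tumor cells, values within these pairs are given for Angptl4, Pdk4 and Acadl, and the tested members called with the replicate block are named. Pair values of the other members are not reported here.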

Additional observations from a re-analysis of the deposited data

Results flagged for a closer look

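The response of Cpt2 to co-culture differed between the macrophages of the 2 experiments by a test of the difference itself, at -0.62 on the log2 scale (early lesion minus primary tumor, edgeR adjusted p = 0.0202). Partner cells and experiment coincide and cannot be told apart, and the macrophage libraries of the experiments also differed in mitochondrial share. Cpt2 was 1 gene called of the 9, where 10.9% of 13727 genes were called, so the count is near the background. It was called in 11 of 16 alternative fits, and lost without mono-cultured replicates 1 (adjusted p = 0.0729) and 2 (0.0887) and co-cultured replicate 2 (0.125) of the early lesion experiment, and without mono-cultured replicate 2 (0.0527) and co-cultured replicate 3 (0.0516) of the primary tumor experiment.

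In the following genes all co-cultured libraries lay on 1 side of the mono-cultured ones in macrophages and on the other side in the mammary cells of the same experiment, higher in macrophages and lower in mammary cells. Macrophage minus mammary response was 1.22 for Acot1 and 0.88 for Angptl4 in the early lesion experiment. It was 1.94 for Acot1 and 1.32 for Cpt1a in the primary tumor experiment. These differences were not tested, and Acot1 and Cpt1a had been picked on the mammary values. In the early lesion experiment 34.2% of all genes were apart upward in macrophages and 10.3% downward in mammary cells. In the primary tumor experiment these shares were 21.2 and 13.7%. The share of genes with both was not computed. For Cpt1a the highest mono-cultured and lowest co-cultured macrophage libraries were nearly level, at 116 and 117 CPM.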

How the results depend on the processing

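Across alternatives other than leaving out a library, 409 of the members' log2 values kept direction and side of the threshold, 13 newly passed, 4 no longer passed and 6 turned direction. With 1 library left out, 443 kept both, 6 newly passed, 19 no longer passed and 27 turned direction. The cause of these changes was not tested.

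Counts of all genes called were most dependent in mammary cells. In early lesion cells 76 became 174 with no filter, 502 in DESeq2, 485 with the replicate block and 146 with all groups in 1 fit, and 0 to 1612 without 1 library. In primary tumor cells 225 became 466 with no filter, 781 in DESeq2 and 2841 with the replicate block, and 4 to 162 without 1 library. For the difference of mammary responses 21 became 35, 329 and 1129 under those 3 settings, and 9 to 184 without 1 library. For the difference of macrophage responses 1503 became 561 to 1890 without 1 library.

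Members called in early lesion cells went from 0 to 1 with no filter (Angptl4, -0.32), 3 in DESeq2, 2 with the replicate block (Pdk4, -1.01, edgeR adjusted p = 0.00553, and Plin2, -0.26, 0.0451) and 1 with all groups in 1 fit (Pdk4), and 0 to 3 without 1 library. Same-numbered early lesion libraries correlated at 0.22, 0.155 and 0.0242, so their numbers were not taken as pairs. In primary tumor cells 1 became 2 in DESeq2 (Pdk4 added, adjusted p = 0.0286) and 4 with the replicate block, and 0 to 1 without 1 library. For the difference of mammary responses 0 became 1 with the block. Without 1 library the macrophage counts were 3 to 5 with either partner and 0 to 2 for their difference. In macrophages the block ended the call of Cpt1a with primary tumor cells (adjusted p = 0.0645), and it changed no other call of a member there.

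Values that turned direction lay near 0. These were Acadl in the difference of macrophage responses (0.022, no filter), Cpt2 (0.020) and Plin2 (0.00496) in macrophages with early lesion cells with all groups in 1 fit, and Cpt1a in mono-cultured macrophages minus primary tumor cells (-0.18 with no filter, -0.000162 with all groups, -0.055 without mitochondrially encoded genes and Grip2). In that comparison the unfiltered fit shifted the median gene by -0.19, and Acadl then passed (-0.30). Without 1 library the ranges that crossed 0 were, for the difference of macrophage responses, Acadl -0.054 to 0.045, Angptl4 -0.13 to 0.095, Hadha -0.081 to 0.025 and Pdk4 -0.41 to 0.13, and for that of mammary responses Pdk4 -0.33 to 0.11. In macrophages with early lesion cells they were Acot2 -0.075 to 0.34, Cpt2 -0.13 to 0.073 and Plin2 -0.10 to 0.017, in early lesion cells Cpt1a -0.059 to 0.00282 and Cpt2 -0.041 to 0.06, and in primary tumor cells Acot2 -0.036 to 0.00996. In mono-cultured macrophages against mammary cells they were Angptl4 -0.11 to 0.028 (early lesion) and Cpt1a -0.12 to 0.089 (primary tumor). Cpt2 in mono-cultured macrophages minus early lesion cells lost its call without macrophage replicate 2 (0.24, adjusted p = 0.0563).

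With mitochondrially encoded genes and Grip2 kept in the library size, levels in the primary tumor experiment were lower, such as 46.5 in place of 103 CPM for Cpt1a in mono-cultured primary tumor cells. Depth limits Acot1, Acot2 and Pdk4 in the primary tumor experiment's macrophages, which rest on 15 to 72 counts a library.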
